A study of Homo sapiens with 36 samples.

Results

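The transcripts described here encode the nuclear-encoded subunits of the mitochondrial respiratory chain and ATP synthase. They were chosen by gene name, as all protein-coding genes named NDUFA, NDUFB, NDUFC, NDUFS or NDUFV with a number, SDHA to SDHD, UQCR, COX4 to COX8, or ATP5F, ATP5M or ATP5P. These names held 2701 of the 788098 windows listed in the series, at 1763 distinct positions in 76 gene names. Of those names 34 belong to complex I, 4 to complex II, 7 to complex III, 12 to complex IV and 19 to complex V. Enhanced crosslinking and immunoprecipitation (eCLIP) was done on HEK293T cells, a human embryonic kidney line kept without any treatment. The proteins recovered were CPSF5, CPSF6, EIF4B, GRB2, LGALS3, MBNL2, RBM10, RBM22 and RNPS1. Each had 2 immunoprecipitated (IP) libraries and 2 input libraries, and the antibody was raised either to the protein or to a V5 tag. The labels give neither the proteins that carried the tag nor the origin of the replicates, whose spread may therefore be technical.

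A window is a stretch of at most 100 nt that the authors listed as enriched in both replicates of a protein, with q-values up to 0.1999. The deposited IP and input reads were already summed over replicates, so no test between libraries could be made and every result below is a description. Enrichment is the authors' own log2 odds ratio of IP over input, and the pair of values given for a window is its lower and higher replicate. Reads outside the listed windows are not in the tables, so the depth of a library is unknown. Absence from a list can mean no enrichment or too few reads for a call. From the number of windows alone, a more abundant transcript and more binding per transcript cannot be told apart.

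The respiratory chain passes electrons from NADH (complex I) and succinate (complex II) through complexes III and IV to oxygen, and ATP synthase (complex V) uses the resulting proton gradient. Most subunits are encoded in the nucleus, translated in the cytosol and imported, and many of their mRNAs are abundant and short. Some of these mRNAs begin with the translation initiator of short 5' UTRs (TISU), a start codon context that also resembles the binding site of the transcription factor YY1. Others begin with a pyrimidine run of the kind found at mRNAs whose translation depends on mTOR. Of the proteins assayed, EIF4B is a cofactor of the eIF4A helicase in translation initiation. CPSF5 and CPSF6 form cleavage factor Im, which binds upstream of poly(A) sites. RNPS1 is a partner of the exon junction complex, RBM10 and MBNL2 regulate splicing, and RBM22 is a spliceosome component. GRB2 is a signalling adaptor and LGALS3 (galectin-3) a sugar-binding lectin.

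The first 30 transcribed bases of several members are shown because EIF4B windows overlapped them and because their leaders differ in kind. All are from RefSeq (GRCh38.p14), 5' to 3', and 62 of the 76 names had an entry. In COX6A1, a complex IV subunit, NDUFA13 and NDUFS6, both complex I subunits, and COX5B of complex IV, the listed 5' UTR window began at the RefSeq start and ended just before an ATG (in capitals). Those windows were 14, 14, 11 and 25 nt long. The sequences lie at chr12:120438113-120438142 (plus strand), chr19:19516225-19516254 (plus), chr5:1801407-1801436 (plus) and chr2:97646062-97646091 (plus).
COX6A1: agtccagatcaaaaATGgcggtagttggtg
NDUFA13: gggatactgcgagtATGgcggcgtcaaagg
NDUFS6: agcggcgcaaaATGgcggcggcgatgacct
COX5B: agttttgctgctagtcgcggacgcaATGgc

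A further 4 starts hold AAGATGGC (in capitals), the core of the TISU element, in which the start codon itself lies. They belong to SDHB, the iron-sulfur subunit of complex II (chr1:17054003-17054032, minus), to NDUFS7, which carries an iron-sulfur cluster of complex I (chr19:1383907-1383936, plus), and to the complex I subunits NDUFA3 (chr19:54102855-54102884, plus) and NDUFS4 (chr5:53560639-53560668, plus).
SDHB: gtcaggagccAAGATGGCggcggtggtcgc
NDUFS7: gtctgaaggccgaggccAAGATGGCggtgc
NDUFA3: gctgtcgccgccgcggagacaAAGATGGCt
NDUFS4: atcctggcgtttgcctgcagcAAGATGGCg

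Another 4 starts begin with C and 4 further pyrimidines (in capitals). They belong to COX7C of complex IV (chr5:86617941-86617970, plus), UQCRH, the hinge protein of complex III (chr1:46303698-46303727, plus), ATP5F1E, the epsilon subunit of ATP synthase (chr20:59032306-59032335, minus), and ATP5PO, the stalk subunit that confers oligomycin sensitivity (chr21:33915775-33915804, minus).
COX7C: CTTTTcagtccttgcgcaccggggaacaag
UQCRH: CTTCTtgatcctgaactgggttaggtgccg
ATP5F1E: CTTCCtgcggctgaaccgcccggctgagcc
ATP5PO: CTCTTcccactcgggtttgacctacagccg

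On the transcribed strand, from 50 bases before to 50 after the start, AAGATGGC occurred in 7 of the 62 members (11.3%), against 2.24% of 15843 protein-coding promoters. The 7 were ATP5PO, NDUFA3, NDUFA6, NDUFS4, NDUFS7, SDHB and UQCRC1. Searched on either strand over all 300 bases of each entry, it occurred in 9 of 62 members (14.5%) and in 3.91% of all. A start with C and 4 more pyrimidines was present in 9 of 62 members (14.5%), against 4.60% of all protein-coding promoters. These matches are descriptions of the sequence and not of binding.

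EIF4B windows were listed for all 76 member names, against 93.4% of the 10122 protein-coding names listed for any protein, and RNPS1 windows for 73 names, against 90.0%. CPSF6 had 65 members (background 86.6%), CPSF5 had 61 (background 65.4%) and MBNL2 had 56 (background 66.5%). RBM10 had 27 members against a background of 47.3%, GRB2 had 19 against 49.1%, RBM22 had 12 against 23.7%, and LGALS3 had 5 against 3.28%. As a share of the 76 names that was 80.3% for CPSF5 and 73.7% for MBNL2, both above their background, and 35.5% for RBM10, 25.0% for GRB2 and 15.8% for RBM22, all below it. The MBNL2 excess depended on the setting, at 64.5% against 62.8% with a lower enrichment of at least 2 and 38 of 76 names against 52.1% with at least 2 windows per gene. CPSF6, at 85.5%, stood near its background, but was at 69.7% against 84.5% with a lower enrichment of at least 2 and 61.8% against 70.6% with a q-value of at most 0.05. Under that q-value limit GRB2 had 12 members against a background of 38.2%, RBM22 had 5 against 11.0%, and LGALS3 had 0 against 0.78%. With at least 2 windows per gene RBM10 had 15 members against 32.6%, RBM22 had 3 against 11.3%, and LGALS3 had 0 against 1.31%.

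**Figure D1:**
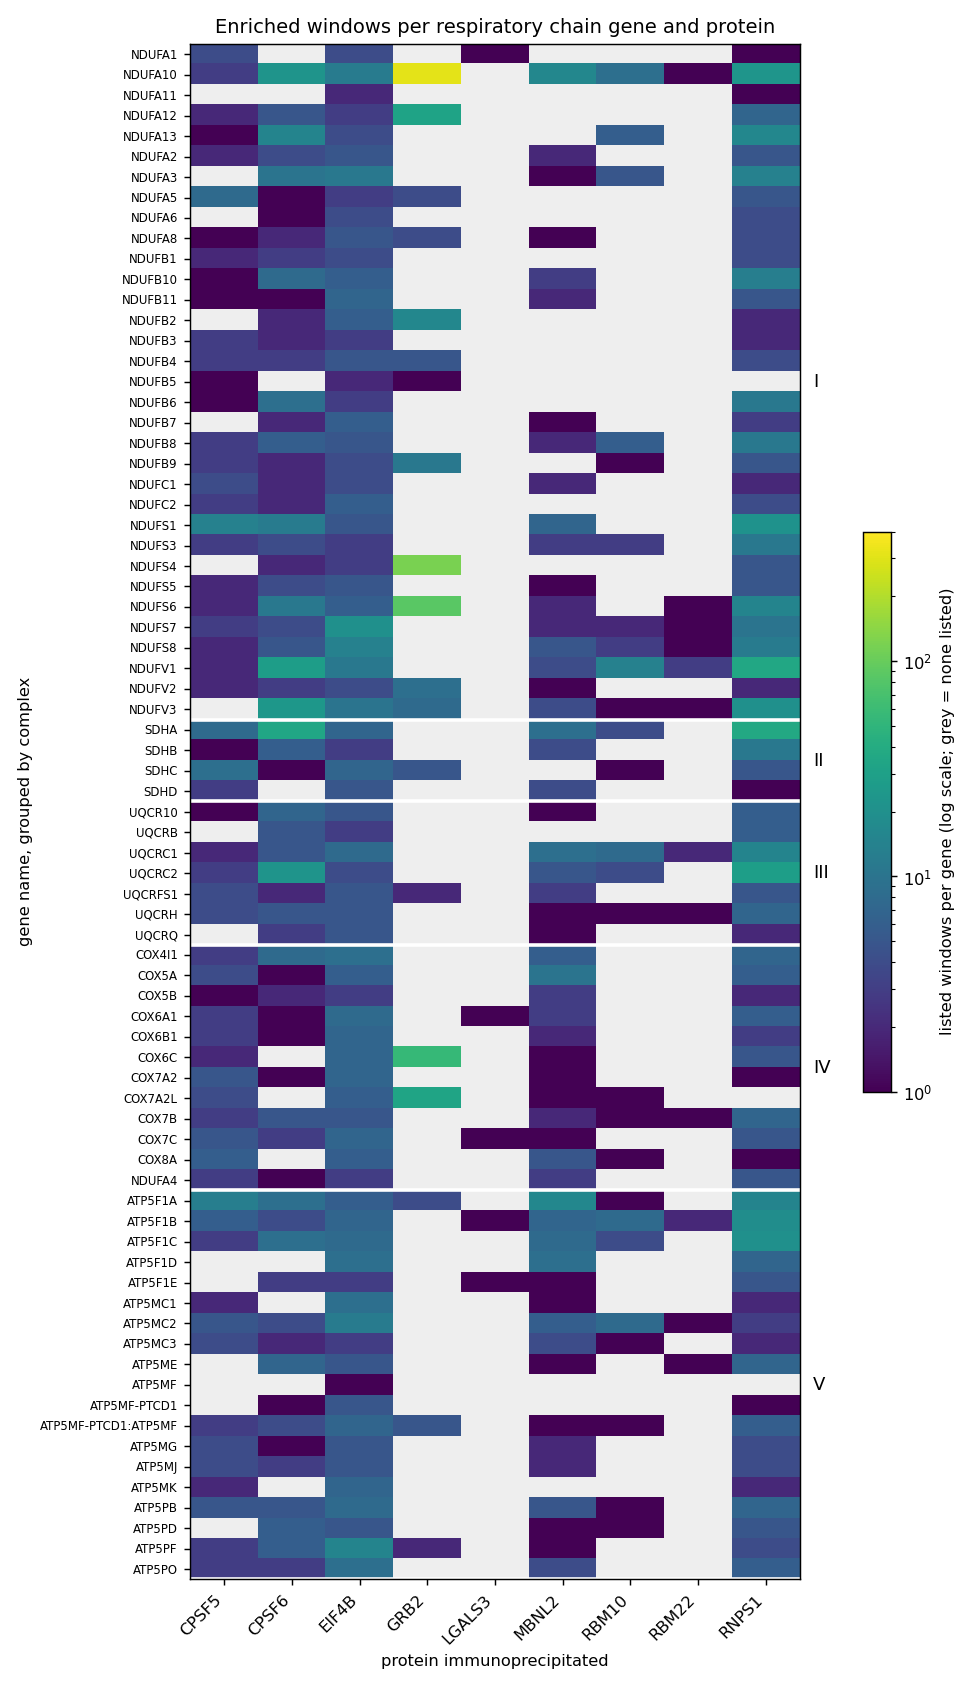
Number of listed windows for 75 of the 76 member names (rows, grouped by complex I to V) in each protein's list (columns), on a logarithmic colour scale with grey for no listed window. The EIF4B column is filled in every row, while GRB2 holds 314 windows in NDUFA10 and none in most other members.

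The lists covered the complexes as follows, in the order I to V. EIF4B windows were listed for every name in each complex. CPSF5 (background 65.4%) had 27 of 34, 4 of 4, 5 of 7, 12 of 12 and 13 of 19 names. MBNL2 (background 66.5%) had 19 of 34, 3 of 4, 6 of 7, 12 of 12 and 16 of 19. CPSF6 (background 86.6%) had 31 of 34, 3 of 4, 7 of 7, 9 of 12 and 15 of 19. The split was not tested, since genes are not replicates.

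Members listed for most proteins were ATP5F1B, the catalytic beta subunit of ATP synthase, and NDUFA10, an accessory subunit of complex I, with 8 of 9 proteins each. ATP5F1B was missing from the GRB2 list and NDUFA10 from the LGALS3 list. ATP5F1B had 54 windows in all, of which 19 were RNPS1 windows and 8 were RBM10 windows. Another 11 names were listed for 7 proteins: ATP5F1A (the alpha subunit), ATP5MC2, the joint name ATP5MF-PTCD1:ATP5MF, COX7B, NDUFS6, NDUFS7, NDUFS8, NDUFV1, NDUFV3, UQCRC1 and UQCRH. A further 16 were listed for 6, among them ATP5F1C, ATP5MC3, ATP5PB, ATP5PF, COX6A1, COX7C, NDUFA8, NDUFB8, NDUFB9, NDUFS3, NDUFV2, SDHA, SDHC, UQCRC2 and UQCRFS1. Together 29 of 76 names (38.2%) reached 6 or more proteins, against 48.8% of all listed protein-coding names, and the median was 5 in both sets. NDUFA11 was listed for 2 proteins and ATP5MF for EIF4B alone.

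Of the 85 RefSeq protein-coding symbols that match the name rule, 8 had no window under any name: ATP5MGL, COX4I2, COX6A2, COX6B2, COX7A1, COX7B2, COX8C and UQCRHL. Several of these are known as tissue-restricted isoforms, such as COX6A2 and COX7A1 of heart and skeletal muscle and COX6B2 and COX7B2 of testis. Their widely expressed counterparts COX4I1, COX6A1, COX6B1, COX7A2, COX7B and COX8A were all listed, each for at least 5 proteins. NDUFA7, NDUFA9 and UQCR11 had 21, 22 and 15 windows under joint names that the rule does not take.

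EIF4B windows of the members were most enriched at 5' ends. The median lower-replicate enrichment of its 460 member windows was 3.40, against 2.83 over all protein-coding windows of the list. Windows in 5' UTRs or over start codons were 40.9% of its member windows and 42.7% of all, but held 81.9% of the EIF4B reads in member windows, against 72.2% over all genes. For 66 of 76 names (86.8%) the most enriched EIF4B window lay there, against 82.3% over all genes listed for EIF4B. Of the windows in 5' UTRs or over start codons, the most enriched one was centred a median of 38.5 nt from the RefSeq start over 73 matched members and 75.5 nt over 8868 genes in all. The choice of these regions itself places the windows near the start. Of all EIF4B windows, 5' UTR windows were 23.3% for members against 31.9%, and start codon windows 17.6% against 10.8%.

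By the lower replicate, the highest EIF4B values were in COX6A1, NDUFA4 and ATP5PB. In COX6A1 the 14-nt leader shown above (chr12:120438113-120438126) had 464 IP reads and 8 input reads, with enrichments of 7.38 and 8.42. NDUFA4, which RefSeq now names COXFA4 and which is a complex IV subunit, had 881 IP reads and 12 input reads in a 5' UTR window at chr7:10940058-10940153, with enrichments of 6.76 and 7.47. ATP5PB, a peripheral stalk subunit of ATP synthase, had 381 IP reads and 2 input reads at chr1:111449464-111449541, with enrichments of 6.68 and 8.98. The replicates of ATP5PB lay further apart than those of the other two.

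Other short leaders were enriched as well. The 13-nt leader of SDHB had 66 IP reads and no input read, with 5.66 and 5.86, and its start codon window had 457 IP and 2 input reads, with 6.27 and 6.91. The 11-nt leader of NDUFS6 had 101 IP reads and 2 input reads, with 3.85 and 6.29, and its start codon window had 1252 IP and 22 input reads, with 5.01 and 5.08. NDUFS4 was near the low end, with 17 IP reads and no input read on its 24-nt leader and enrichments of 3.67 and 4.04. An EIF4B window overlapped the first 30 bases in 59 of the 62 members with a RefSeq entry. The same count over all genes is not given here, so 59 of 62 cannot be called particular to the members. The median lower enrichment there was 4.91 in 8 members with a pyrimidine start and 5.01 in 51 without one.

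**Figure D2:**
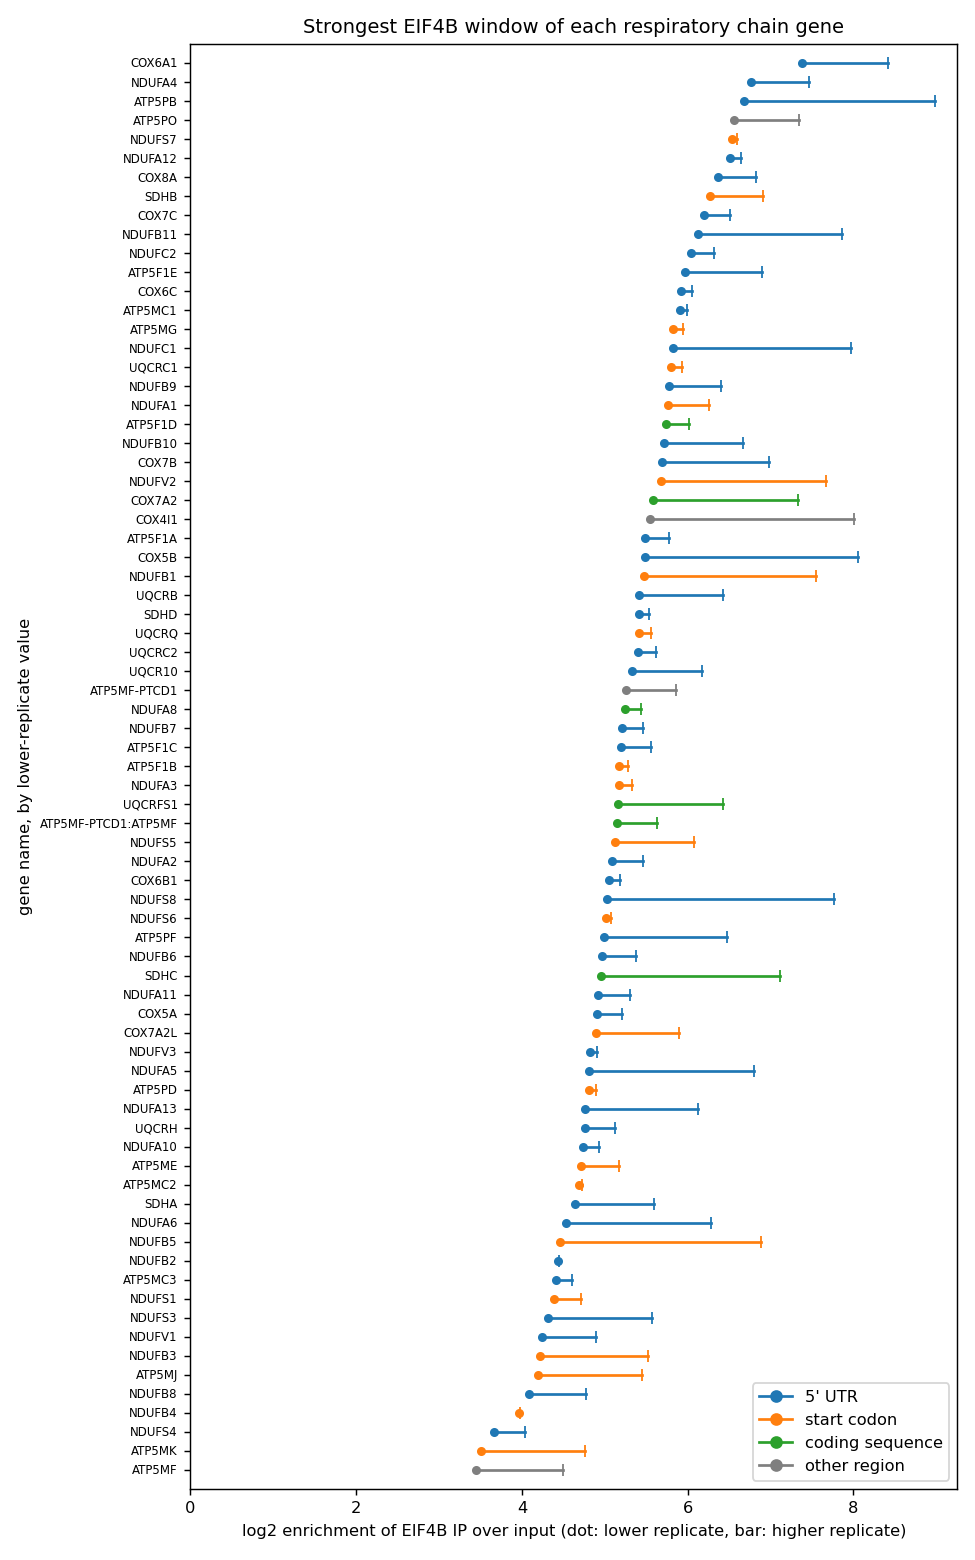
Most enriched EIF4B window of 75 of the 76 names, as log2 enrichment of IP over input in the lower replicate (dot) and the higher replicate (bar), coloured by transcript region. COX6A1 is highest by the lower replicate, at 7.38 to 8.42, while ATP5PB reaches 8.98 in the higher replicate, and most windows are in 5' UTRs or over start codons.

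Members with most EIF4B windows were NDUFS7 (20 windows), ATP5PF of the ATP synthase stalk (15) and NDUFS8, which carries 2 iron-sulfur clusters of complex I (14). The 3 genes for the c-ring of ATP synthase encode the same mature protein behind different import sequences. Their most enriched EIF4B windows had 5.91 and 5.99 in a 9-nt stretch of the ATP5MC1 5' UTR, on only 14 IP and 0 input reads. The ATP5MC2 start codon had 4.69 and 4.72 on 311 IP and 16 input reads. The ATP5MC3 5' UTR had 4.41 and 4.60 on 1847 IP and 47 input reads. Genes of such families and their processed copies can share reads, and how reads with several matches were treated is not given in the sources used here.

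CPSF5 had 213 windows in 61 members, in 3' UTRs and elsewhere along the mRNA. In all, 87 windows (40.8%) were in 3' UTRs, against 81.0% of all protein-coding CPSF5 windows. Coding sequence held 28.6% of member windows against 6.23% of all, stop codons 14.6% against 2.86%, 5' UTRs 7.98% against 0.96%, and start codons 6.10% against 0.56%. With a q-value of at most 0.05 the 3' UTR share was 55.3% for members and 89.2% for all. The most enriched CPSF5 window lay in the 3' UTR for 38 of 61 members (62.3%), against 86.9% over all genes.

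**Figure D3:**
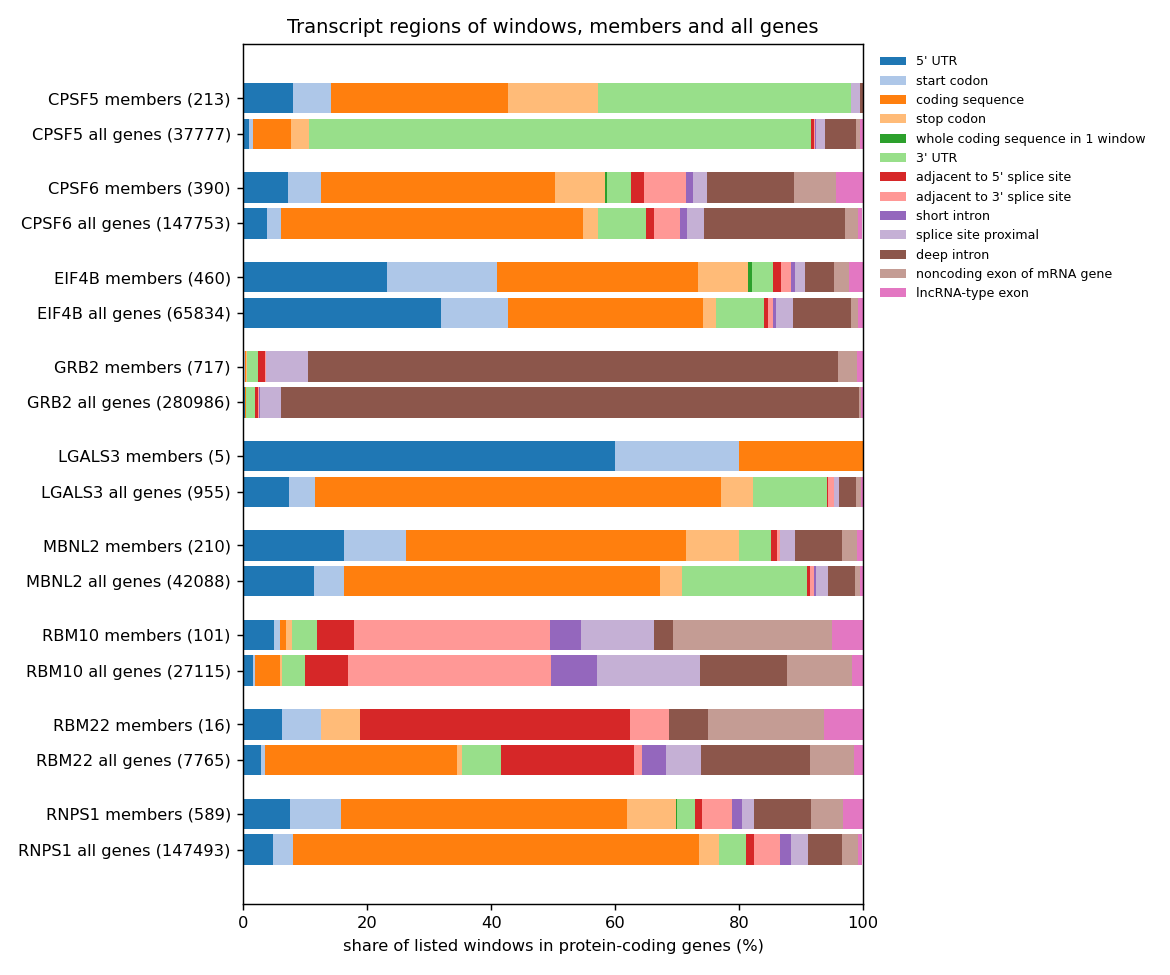
Share of listed windows in each transcript region (horizontal axis, percent) for members (upper bar of each pair) and all protein-coding genes (lower bar), with the number of windows in brackets. CPSF5 shows the widest gap in 3' UTRs, 40.8% for members against 81.0% for all.

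The CPSF5 windows of members were also set against the other lists. Outside 3' UTRs, 114 of 126 windows (90.5%) were also listed for another protein, against 63.0% over all genes. Inside 3' UTRs, 18 of 87 (20.7%) were, against 21.3%. The median lower enrichment was 2.30 outside and 2.74 inside for members, and median input reads were 6.5 outside and 4 inside. The part that transcript abundance has in the windows outside 3' UTRs was not tested. Member genes also had fewer listed 3' UTR windows, with a median of 2 distinct ones in any list per gene that had one, against 4 over all genes. That count includes the CPSF5 windows themselves, so it is not a separate measure, and the length of 3' UTRs was not measured.

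Where members had a CPSF5 window in the 3' UTR, its distance to the annotated end of the gene was taken. The most enriched one was centred a median of 143.5 nt from the RefSeq gene end over 44 members and 505.5 nt over 5953 genes. It was within 200 nt of the end in 25 of 44 members (56.8%), against 33.1% of all genes. Shorter 3' UTRs place any window nearer the end, and no adjustment for length was made.

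The most enriched of these was in ATP5F1B, at chr12:56638175-56638248, with 148 IP reads, 1 input read, enrichments of 6.74 and 6.89 and a centre 36.5 nt from the gene end. ATP5MC3, a c-ring gene, had 134 IP reads and 3 input reads at chr2:175178191-175178287, with 5.44 and 7.06, at 1981 nt from the end of the RefSeq gene. In COX5A of complex IV the top window, chr15:74920320-74920380, was annotated to a stop codon and had 45 IP reads and no input read, with 5.40 and 6.16. NDUFS1, the largest subunit of complex I, had the most CPSF5 windows (14), followed by ATP5F1A (13) and SDHC (9), which anchors complex II in the membrane. NDUFS1 also had a window 49 nt from its end, which held 40 IP reads and 0 input reads at enrichments of 5.39 and 5.52.

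**Figure D4:**
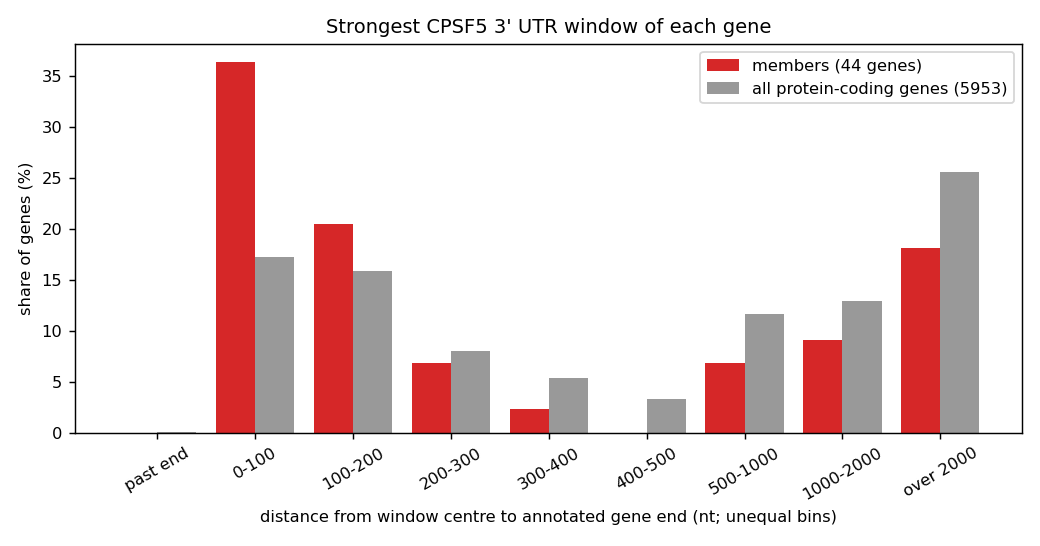
Distance from the centre of the most enriched CPSF5 3' UTR window to the annotated gene end (horizontal axis, nt, unequal bins) as a share of genes (vertical axis, percent), for 44 members and all 5953 protein-coding genes. In the bin up to 100 nt are 36.4% of members and 17.2% of all genes.

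CPSF6 and RNPS1 had 390 and 589 member windows, with median lower enrichments of 2.23 and 2.81, against 2.51 and 2.93 over all genes. Coding sequence was the leading class of both. The CPSF6 share was 37.7% for members against 48.7%, and the RNPS1 share 46.2% against 65.4%. Stop codon windows were 8.21% of CPSF6 member windows against 2.47%, and 7.81% of RNPS1 member windows against 3.20%. With start and stop codon windows included, coding sequence held 51.5% of CPSF6 member windows against 53.5%, and 62.5% of RNPS1 windows against 71.9%. Per gene with such a window, CPSF6 had 3.42 other coding windows in members against 9.38, and RNPS1 had 4.46 against 11.4. Stop codon windows per gene were 1.19 against 1.14 for CPSF6 and 1.24 against 1.17 for RNPS1. The part of coding sequence length was not tested. The 2 lists held 294 identical member windows, which were 75.4% of the CPSF6 and 49.9% of the RNPS1 member windows. Over all genes the shared windows were 57.0% and 57.1% of those lists.

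The most enriched CPSF6 window was a 20-nt stop codon window of ATP5ME, the e subunit of ATP synthase (chr4:672500-672519), with 56 IP reads, 2 input reads and enrichments of 4.84 and 6.29. Deep introns of SDHA, the flavoprotein of complex II (4.79 and 6.32), and NDUFA10 (4.52 and 4.65) followed. The top RNPS1 windows were all in coding sequence. SDHB had 69 IP reads and no input read at chr1:17033060-17033145, with 6.32 and 6.55. NDUFB10 of complex I had 231 IP reads and 1 input read at chr16:1961153-1961221, with 6.21 and 7.41. COX7C had 28 IP reads and no input read in a 17-nt window, with 5.81 and 6.17. SDHA and NDUFV1, the NADH-binding subunit of complex I, led both lists by number of windows. SDHA had 35 CPSF6 and 37 RNPS1 windows and NDUFV1 had 28 and 36. NDUFV3, which sits beside NDUFV1 in the complex, had 24 CPSF6 windows, and UQCRC2, a core protein of complex III, had 29 RNPS1 windows.

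MBNL2 had 210 member windows with a median lower enrichment of 2.46, against 2.39 over all genes. Coding sequence held 45.2% of them against 51.1%, 5' UTRs 16.2% against 11.3%, and 3' UTRs 5.24% against 20.1%. By reads, coding sequence held 26.8% for members and 57.9% for all. The leader of COX6A1 was the top window again, here with 16 IP reads and 2 input reads and enrichments of 5.18 and 5.85. An exon annotated as lncRNA type at NDUFV3 followed with 4.90 and 6.40 on 13 IP and 4 input reads, and a coding window of ATP5F1A with 4.79 and 5.55 on 17 IP and 2 input reads. All of these rest on fewer than 20 IP reads. ATP5F1A and NDUFA10 had 16 MBNL2 windows each, and COX5A had 10. Of the member windows of MBNL2, 59.0% were also RNPS1 windows, against 49.3% over all genes, and 54.8% were EIF4B windows, against 40.4%.

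LGALS3 had only 5 member windows, 1 each in ATP5F1E, COX6A1, NDUFA1, COX7C and ATP5F1B. Of these 3 were in 5' UTRs and 1 over a start codon, against 11.6% of all its protein-coding windows in those 2 regions. ATP5F1E had 35 IP reads and 1 input read in its 5' UTR (chr20:59032252-59032345), with enrichments of 2.97 and 4.98. COX6A1 had 18 IP reads and 6 input reads on its leader, with 2.21 and 3.36. NDUFA1 had 21 IP reads and 4 input reads over its start codon, with 2.07 and 2.38. COX7C had 38 IP reads and 9 input reads, and ATP5F1B 36 IP reads and 8 input reads. All 5 windows were also in the EIF4B and RNPS1 lists, which held 50.2% and 79.5% of all LGALS3 windows in protein-coding genes. None of the 5 had a q-value of at most 0.05, against 27.2% of all LGALS3 windows.

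RBM10 had 101 windows in 27 members, and 32 of them (31.7%) lay in introns in the 100 nt next to a 3' splice site, against 32.8% over all genes. Another 26 windows (25.7%) were in noncoding exons of mRNA genes, against 10.4%. Of these, 8 were in NDUFV1 and 4 in NDUFA10. The 2 most enriched windows were beside 3' splice sites of names grouped with complex IV, which had only 3 RBM10 windows in all. COX7A2L, a factor that joins complexes III and IV into supercomplexes, had 86 IP reads and no input read at chr2:42353344-42353443, with enrichments of 6.16 and 6.38. COX7B had 234 IP reads and 5 input reads at chrX:77905084-77905183, with 5.47 and 5.79. A short intron of NDUFV1 had 57 IP reads and no input read, with 5.07 and 5.34. Each of these had RBM10 values whose replicates differed by less than the list's median gap of 1.02. The authors' q-value was 0.089 for the NDUFV1 window, above the limit of 0.05, and below that limit for COX7A2L and COX7B. By number of windows NDUFV1 led with 14, followed by NDUFA10 with 9 and then by UQCRC1, a core protein of complex III, ATP5MC2 and ATP5F1B with 8 each.

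RBM22 had 16 windows in 12 members, and 7 of them (43.8%) lay next to a 5' splice site, against 21.5% over all genes. With a q-value of at most 0.05 that share was 71.4% for members (over 7 windows) and 23.5% for all. Per gene, the most enriched RBM22 window lay next to such a site in 5 of 12 members (41.7%), against 42.3% over all genes. None of the 16 was in coding sequence, against 31.1% over all genes. The top window was at the start of an ATP5F1B intron (chr12:56645737-56645836, 197.5 nt from the gene start), with 65 IP reads, 1 input read and enrichments of 4.92 and 5.19. UQCRH had 179 IP reads and 4 input reads at chr1:46303821-46303920, 172.5 nt from its start, with 4.36 and 4.78. NDUFV1 had 19 IP reads and no input read in a noncoding exon, with 4.17 and 4.40. The remaining windows beside 5' splice sites were a second one in ATP5F1B (3.16 and 3.80), one in ATP5MC2 (3.59 and 4.85), a pair in UQCRC1 (2.56 and 4.71, 2.85 and 4.62) and one in NDUFS7 (1.49 and 1.85). NDUFV1 had 3 windows, and ATP5F1B and UQCRC1 had 2 each.

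GRB2 windows were the most numerous, with 717, but lay in few members. NDUFA10 had 314, NDUFS4 had 120, NDUFS6 had 87 and COX6C had 55, and these 4 genes held 80.3% of them. Deep introns, meaning intron beyond the flanks of splice sites, held 85.5% of member windows, against 93.4% over all genes. The most enriched window, in an intron of NDUFS6 (chr5:1803971-1804070), had 331 IP reads and 1 input read, with enrichments of 7.10 and 7.92. NDUFA10 followed, where 109 IP and 0 input reads gave 6.48 and 6.86, and then a noncoding exon at NDUFA12, where 119 IP and 0 input reads gave 6.41 and 6.90.

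Member genes are short, with a median length of 10.5 kb against 32.3 kb over all matched genes, and GRB2 windows lay in the longer ones. The median was 23.4 kb in 18 members with GRB2 windows and 8.11 kb in 57 without, against 64.9 kb and 15.5 kb over all matched genes with and without them. Among members of at least 20 kb, 10 of 16 (62.5%) were listed, against 68.7% of all genes of that length. Among shorter members 8 of 59 (13.6%) were, against 15.7% of all. Within each length class the members therefore stood near the background. Per kb of gene, NDUFS6 had 5.94 windows and COX6C 3.47, while NDUFA10 had 2.36 and NDUFS4 0.98. The density over all genes with GRB2 windows is not given here, so none of these can be called high or low. For NDUFA10 the most enriched CPSF5 3' UTR window lay 68533.5 nt from the RefSeq gene end. The RefSeq length may therefore exceed the transcript to which its windows were annotated.

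**Figure D5:**
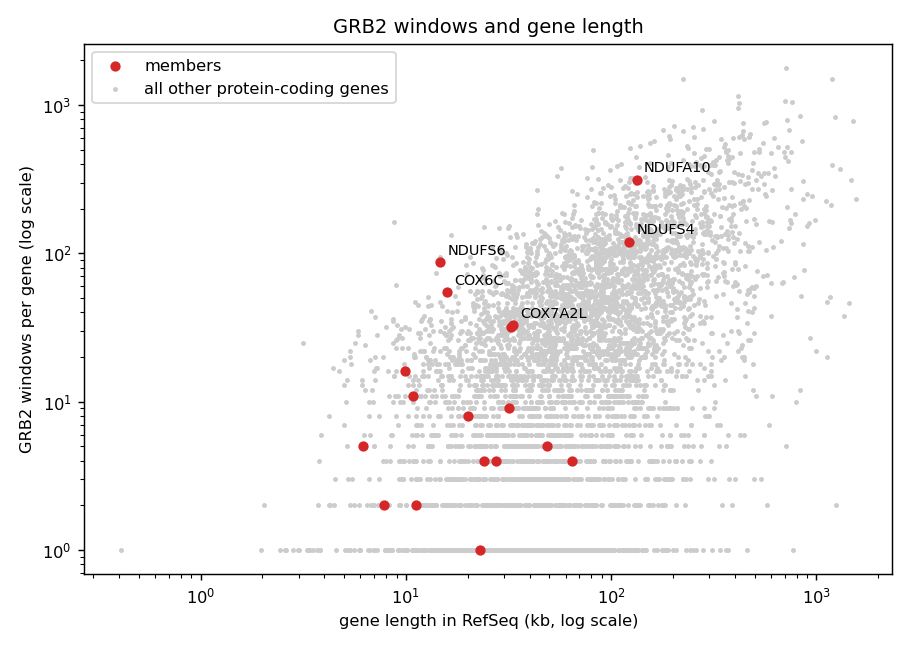
GRB2 windows per gene (vertical axis, log scale) against gene length in RefSeq (horizontal axis, kb, log scale), for members (red) and all other protein-coding genes with a GRB2 window (grey). NDUFA10 and NDUFS4 are the longest members, at 132.9 and 122.7 kb, and NDUFS6 has 87 windows in its 14.6 kb.

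Sharing was counted over identical windows. Of the 1763 distinct ones, 1191 (67.6%) were in a single list, against 77.7% of all protein-coding windows, and 89 (5.05%) were in 4 or more lists, against 1.72%. Of the 89, coding sequence held 33, 5' UTRs 20, stop codons 12 and start codons 11. RNPS1 listed 85 of them, EIF4B 81, CPSF6 75, MBNL2 64 and CPSF5 48, while GRB2 listed 2. With a q-value of at most 0.05 the count was 24. For all genes, neither the regions and proteins of such windows nor their count under that limit is given here.

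The 89 windows lay in 46 names. No member window was in 6 or more lists, and 19 windows in 15 names were in 5. Those names were ATP5MG, NDUFV1, NDUFS8, COX6A1, ATP5F1B, COX5A, COX4I1, ATP5F1A, UQCRH, ATP5F1E, NDUFV3, COX7C, NDUFA4, COX7B and ATP5MF-PTCD1:ATP5MF. The other names with a window in 4 lists were ATP5F1C, ATP5MC1, ATP5MC2, ATP5MC3, ATP5MJ, ATP5PB, ATP5PD, ATP5PF, ATP5PO, COX6B1, COX8A, NDUFA1, NDUFA10, NDUFA13, NDUFA2, NDUFA3, NDUFA8, NDUFB10, NDUFB3, NDUFB4, NDUFB8, NDUFC2, NDUFS1, NDUFS3, NDUFS5, NDUFS6, NDUFS7, SDHA, UQCRC1, UQCRC2 and UQCRQ.

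In the shared windows the enrichment differed widely between proteins, although values of different lists are not on a common scale. The 5' UTR window of NDUFA4 had 6.76 and 7.47 for EIF4B, 3.13 and 3.58 for RNPS1, 2.07 and 3.66 for MBNL2, 1.60 and 1.96 for CPSF5, and 1.27 and 2.56 for CPSF6. A coding window of COX4I1, the largest nuclear-encoded subunit of complex IV (chr16:85804937-85805020), had 3.98 and 4.17 for EIF4B and 3.67 and 4.40 for RNPS1. It had 3.02 and 3.26 for CPSF6, 2.04 and 2.18 for CPSF5, and 1.24 and 2.22 for MBNL2. The NDUFV1 5' UTR window at chr11:67608226-67608310 was the only one of the 19 that was in both the RBM10 list (3.12 and 5.70) and the RBM22 list (2.47 and 2.55). CPSF5 shared 41.3% of its member windows with EIF4B and 40.9% with RNPS1, against 10.7% and 10.2% over all genes.

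Genes that build the chain without being members were counted in the same way. A list of 60 assembly factors and other subunits or carriers had 56 names in the tables. CPSF5 listed 30 of the 56 (53.6%, background 65.4%), CPSF6 51 (91.1%, background 86.6%), EIF4B 54 (96.4%, background 93.4%) and RNPS1 all 56 (background 90.0%). GRB2 listed 24 (42.9%, background 49.1%), MBNL2 33 (58.9%, background 66.5%), RBM10 22 (39.3%, background 47.3%) and RBM22 8 (14.3%, background 23.7%), while LGALS3 listed none (background 3.28%). Of the 100 CPSF5 windows in these genes, 74 were in 3' UTRs, a share of 74.0% beside 40.8% in the members and 81.0% over all its protein-coding windows.

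The most enriched CPSF5 windows among the assembly genes were in the 3' UTRs of ATPAF1, a complex V assembly factor (7.09 and 7.17), and TIMMDC1 of complex I assembly (6.18 and 6.98). For EIF4B they were in the 5' UTRs of COX17, a copper chaperone (6.80 and 6.87), and SDHAF1 of complex II assembly (6.78 and 6.85). CPSF6 had deep introns of NUBPL (5.27 and 5.50) and COA1 (5.01 and 5.11), and GRB2 deep introns of CMC2 (7.06 and 7.31) and DMAC2L (7.06 and 7.08). MBNL2 had NDUFAF3 (5.12 and 5.17) and TMEM70 (5.01 and 5.40), and RBM10 had NDUFAF3 (6.18 and 7.12) and ATPAF2 (5.37 and 5.71). RBM22 windows beside 5' splice sites led in ACAD9 (4.70 and 4.96) and LRPPRC (4.49 and 5.21), and RNPS1 windows in ACAD9 (5.79 and 6.13) and COA7 (5.74 and 6.30). Apart from TIMMDC1 and COA1, with 3 and 1 input reads, these windows had no input read. The TMEM70 window had only 13 IP reads.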

How the data were processed

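The 9 tables hold the windows that the authors listed for each protein. The deposited read counts are IP and input reads per window, summed over replicates by the authors. Per the file headers, each window also has the authors' log2 enrichment for the lower and the higher replicate, and a q-value and p-value. Results for the GC fraction deposited per window are not reported here. Per the submitters' processing notes, coordinates follow hg38. Not given in the sources used here are the aligner, window caller, annotation version and treatment of multiply matching reads.

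Rows were selected by gene name and protein-coding type, which left out 136 rows under joint names and 7 of another gene type. Starts were shifted to 1-based coordinates. Feature types were grouped into classes, and identical windows counted as shared. Each member count was read against the share of 10122 protein-coding names in the same list. Names were matched to RefSeq by symbol or unique synonym (75 of 76), the exception being ATP5MF-PTCD1:ATP5MF. The 3 ATP5MF names cover 1 locus. Distances were taken from window centres to RefSeq gene ends.

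Named genes were members listed for 6 or more proteins, the top 3 windows by lower enrichment (1 per gene) and the 3 members with most windows for each protein, members with no window, windows in 4 or more lists, members of 1 list, and for assembly genes the top 2 per protein. Members named for their start sequence, absent or joint names, the other c-ring genes, further RBM22 windows and the NDUFS1 3' UTR window were chosen after their values were seen. Members and lists were chosen with earlier results of these data known. A single member is counted but not reported by name here. Selection was tested on simulated rows. Python 3.11.15, numpy 2.4.6, pandas 2.3.3, scipy 1.17.1 and matplotlib 3.10.9 were used.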

Additional observations from a re-analysis of the deposited data

How the results depend on the processing

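No paired analysis was possible because the tables hold counts summed over replicates, and for the same reason no replicate could be left out. Of 121 recomputed values, 88 stayed within 1.5 times the count, the 95% binomial interval of the share or the gap between replicates. That interval takes windows as independent, although windows of 1 gene share their source, so it is only a yardstick. Set against the background under the same setting, some members' values changed side. MBNL2 members were 38 of 76 against 52.1% with at least 2 windows per gene. LGALS3 members were 0 against 0.78% with a q-value of at most 0.05. Weighted by IP reads, the EIF4B share was 81.9% against 72.2% and the RBM10 share (3' splice site) 33.5% against 30.02%. With a q-value of at most 0.05, members listed were 12 for GRB2 (background 38.2%), 0 for LGALS3 and 5 for RBM22 (11.0%), and assembly genes for RBM22 were 5. Under the same limit, class shares were 55.3% (CPSF5, 3' UTR), 42.9% (CPSF6, coding), 49.5% (EIF4B, 5' UTR or start codon), 71.4% (RBM22, 5' splice site) and 52.8% (RNPS1, coding). The RBM22 median was 3.59, windows in 4 or more lists were 24, CPSF6 windows shared with RNPS1 were 153, and shared CPSF5 windows outside 3' UTRs were 42 of 55 (76.4%, against 49.2% over all genes). Fewer windows pass this limit, which lowers counts by construction. LGALS3 members were 3 with a lower enrichment of at least 2. With at least 2 windows per gene, members were 0 for LGALS3 (background 1.31%), 15 for RBM10 (32.6%) and 3 for RBM22 (11.3%). Weighted by IP reads, the other shares that moved were 51.4% (CPSF5), 26.8% (MBNL2) and 70.3% (RBM22). As means of per-gene shares they were 46.5% (EIF4B), 71.8% (GRB2, deep intron) and 54.0% (RBM10, 3' splice site). Medians in the higher replicate were 3.33 (CPSF5), 3.13 (CPSF6), 4.46 (EIF4B), 4.44 (GRB2), 3.36 (LGALS3), 3.18 (MBNL2), 4.33 (RBM10) and 3.96 (RNPS1). Counting overlapping or adjoining windows as shared gave 256 windows in 4 or more lists. The causes were not tested. Against all RefSeq protein-coding genes the backgrounds were lower, from 1.59% (LGALS3) to 45.8% (EIF4B). Windows with few or no input reads limit the precision of single enrichments.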
